A study of Mus musculus with 24 samples.

Results

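The renin-angiotensin system was followed through 7 of the 54752 genes in the count table: Ren1 (renin), Agt (angiotensinogen), Ace (angiotensin-converting enzyme), Agtr1a and Agtr1b (the mouse type 1 angiotensin receptors), Agtr2 (the type 2 receptor) and Mas1 (the Mas receptor). The genes were picked by pathway name and matched by Ensembl identifier. The group was taken up because Agtr1b was higher in Prdm6-deficient vessels, so the genotype differences of Agtr1b are given as values with no test, and tests are given for the other genes. Renin cleaves angiotensinogen to angiotensin I, and Ace, an enzyme of the cell surface known mainly from endothelium, converts this peptide to angiotensin II. Angiotensin II constricts vessels through the Gq-coupled type 1 receptor, while the type 2 receptor is a gene of fetal mesenchyme that is known to oppose many type 1 responses. Mas1 binds a shorter angiotensin peptide.

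RNA-Seq was made from the ductus arteriosus (DA), the fetal vessel that joins the pulmonary artery to the aorta and closes after birth, and from the ascending aorta, both dissected from E18.5 mouse embryos on a C57BL/6 background. Prdm6-deficient embryos had the genotype Wnt1Cre;PRDM6f/f, in which Cre is driven by the Wnt1 promoter in neural crest cells, so that the crest-derived smooth muscle and other crest-derived cells, such as melanocytes, are targeted and the endothelium is not. They gave 5 DA libraries, 2 of them pools of 2 embryos, and 5 aorta libraries, and replicate 4 of the Prdm6-deficient DA was not analysed here. Controls gave 7 DA libraries, of which 5 were PRDM6wt/f, 1 was PRDM6wt/wt and 1 was Wnt1Cre;PRDM6wt/wt, and 6 aorta libraries, of which 5 were PRDM6wt/f and 1 was Wnt1Cre;PRDM6wt/wt. No control carried Cre together with a floxed allele. The embryo numbers fall into 2 runs, and all control embryos of the first run lacked a floxed allele while all those of the second carried 1. Run and control genotype therefore cannot be told apart.

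Total counts per library ranged from 15163974 to 22610547, and 3 counts, the number below which a gene was taken as not detected, stood for 0.133 to 0.198 CPM, the counts scaled to the total of the library. Prdm6 itself, the targeted gene, averaged 107.8 ± 16.3 CPM in the 7 control DA against 72.7 ± 8.50 CPM in the 5 Prdm6-deficient DA (mean ± SD), and 113 ± 16.2 against 70.25 ± 6.95 CPM in the 6 control and 5 Prdm6-deficient aortas, with no overlap of the genotypes in either vessel. Smooth muscle markers were abundant in all libraries, as the labelled tissues require, and their summed level over 6 genes was 13400 to 23580 CPM in control DA, 9704 to 11890 in Prdm6-deficient DA, 8370 to 11890 in control aorta and 9278 to 10990 in Prdm6-deficient aorta. Control DA replicate 1 stood apart in 6 cardiomyocyte markers, with a summed 1153 CPM against 27.8 to 202.9 in the other control DA. Prdm6-deficient DA held 78.5 to 484.6 CPM of these markers, with the most in replicates 7 (484.6 CPM) and 2 (243.9 CPM). Results that rest on control DA replicate 1 are given with and without it.

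Agtr1a and Agtr1b are near copies, so it was first asked whether reads could be told apart between them. Their coding sequences are 1077 bases each and agree at 978 positions (90.8%), and the longest stretch without a difference is 66 bases, which is shorter than a read. No stretch of read length was shared between any annotated transcripts of the 2 genes. The 90-base coding windows with the most and the fewest differences are printed to show this range, 5′ to 3′ on the coding strand of mm10, with bases that differ between the copies in capitals. The first pair, with 20 differences, lies in the last exon at chr13:30381925-30382014 on the plus strand for Agtr1a and at chr3:20315380-20315469 on the minus strand for Agtr1b, and the second pair, with 1 difference, at chr13:30381233-30381322 and chr3:20316072-20316161.
Agtr1a, most differences: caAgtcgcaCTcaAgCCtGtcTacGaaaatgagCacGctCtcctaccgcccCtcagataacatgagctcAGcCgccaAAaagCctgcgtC
Agtr1b, most differences: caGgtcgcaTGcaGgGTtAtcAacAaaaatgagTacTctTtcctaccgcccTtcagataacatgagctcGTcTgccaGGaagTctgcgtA
Agtr1a, fewest differences: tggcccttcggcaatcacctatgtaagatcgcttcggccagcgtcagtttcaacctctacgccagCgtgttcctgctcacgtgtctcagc
Agtr1b, fewest differences: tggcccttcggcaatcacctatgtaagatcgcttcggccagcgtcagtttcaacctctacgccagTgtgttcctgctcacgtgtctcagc

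Per kilobase of exon, Ace and Agtr2 were the most abundant of the 7 transcripts in all 4 groups. Ace averaged 115 ± 21.3 CPM per kb (SD, n = 7) in control DA, and Agtr2 35.2 ± 15.1. Ren1 followed at 5.2 ± 3.99 CPM per kb, and its libraries overlapped those of Agtr1a, the next gene in order, at 1.06 ± 1.15. In control DA the ranges of Agtr1a, Agt, Agtr1b and Mas1 overlapped each with the next, so their order was not resolved there. In Prdm6-deficient DA the order below Ren1 was Agtr1b at 3.44 ± 0.386, Agtr1a at 2.80 ± 1.21, Mas1 at 0.111 ± 0.175 and Agt at 0.0590 ± 0.0501 CPM per kb (SD, n = 5), with a gap between the type 1 receptors and Mas1. The ranges of Ren1, Agtr1b and Agtr1a overlapped each with the next, as did those of Mas1 and Agt, so the order within these was not resolved. In control aorta Ren1 stood at 12.7 ± 4.48 and Agtr1a at 2.30 ± 0.309 CPM per kb (SD, n = 6), and these neighbours did not overlap.

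**Figure D1:**
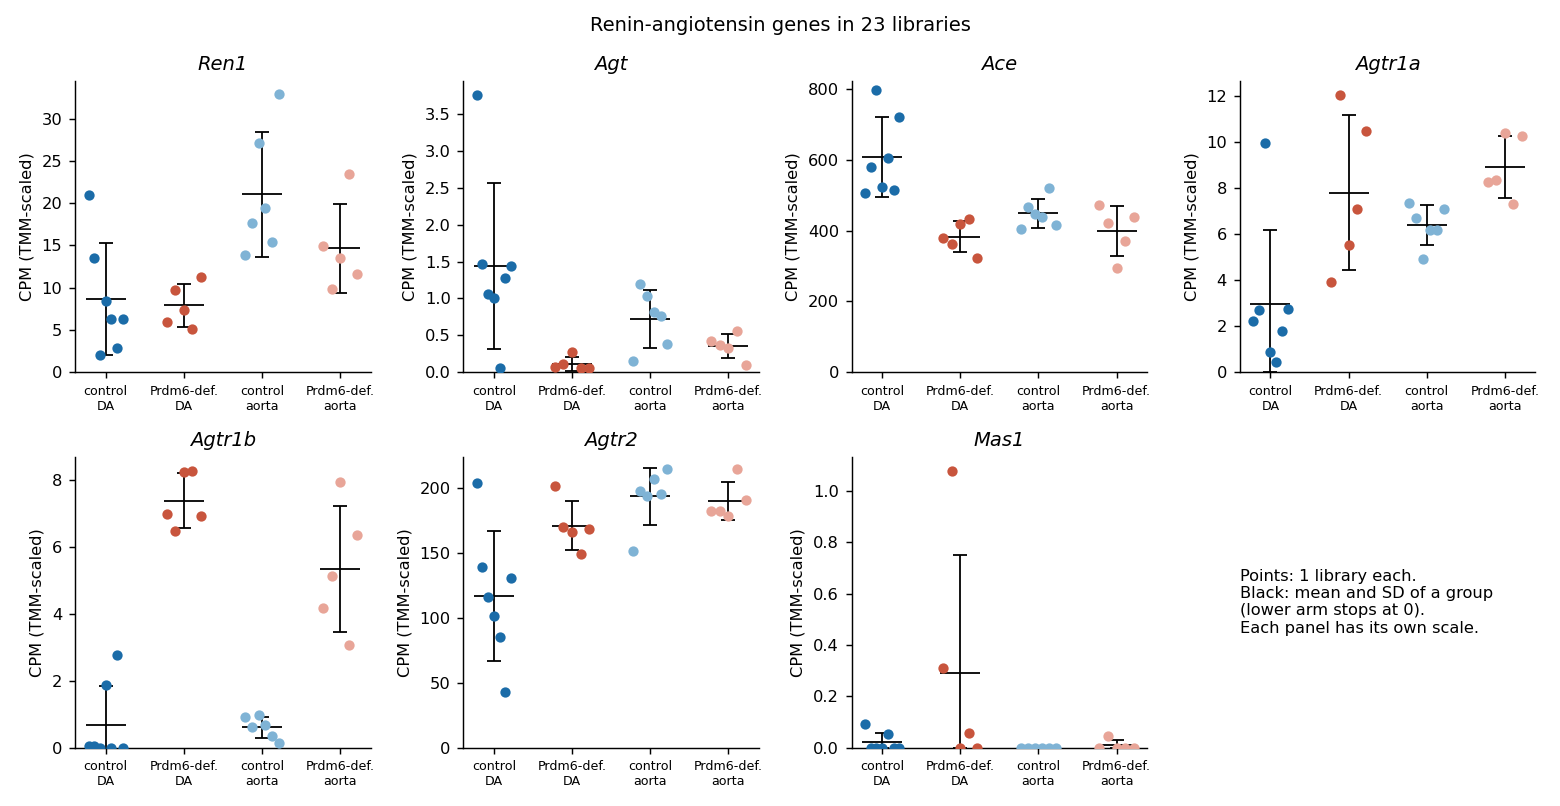
Expression of the 7 genes in each of the 23 libraries, by vessel and genotype, in CPM scaled by the TMM method; points are libraries, and black marks are the mean and SD of a group. Agtr1b is above 3 CPM in all Prdm6-deficient libraries, Ace is lower in all 5 Prdm6-deficient DA than in all 7 control DA, and single control DA libraries stand far from the rest for Agt (3.76 CPM) and Agtr1a (9.95 CPM).

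The pathway's first step was examined through Ren1 (chr1:133350510-133360325), the protease that limits the rate of angiotensin formation. In control aorta Ren1 was measured at 13.8, 18.5 and 32.9 CPM in the lowest, median and highest library, and in control DA at 2.002, 6.31 and 20.9 CPM. The groups overlapped only through control DA replicate 1, at 20.9 CPM, with the other 6 control DA at or below 13.5 CPM. The log2 fold change of control DA against control aorta was -1.28 (SE 0.37, adjusted p = 0.0203), which missed the call limit of an adjusted p below 0.01. Without control DA replicate 1 it was -1.68 with an adjusted p of 0.00113. With the embryo as a block it was -1.53 (adjusted p = 0.00295) by limma-voom and -1.31 (adjusted p = 0.0351) by edgeR on the 6 control embryos with both vessels. Prdm6-deficient DA held 5.92, 9.71, 7.33, 5.12 and 11.3 CPM and Prdm6-deficient aorta 14.9, 9.85, 13.5, 23.4 and 11.6 CPM. All Prdm6-deficient DA lay within the range of the control DA, and 3 of the 5 Prdm6-deficient aortas lay below the lowest control aorta. The genotype differences were -0.13 (SE 0.39, adjusted p = 0.896) in the DA and -0.52 (SE 0.40, adjusted p = 0.695) in the aorta on the log2 scale. Among control DA, Ren1 was lowest in replicates 3 and 6, at 2.002 and 2.90 CPM, which were also among the 3 libraries with the most smooth muscle marker RNA (21570 and 20330 CPM). The part of the tissue's makeup in the Ren1 levels was not tested.

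Angiotensinogen was scarce in these vessels, with the fewest counts in Prdm6-deficient DA. Agt (chr8:124556534-124569706) had 81, 29, 19, 15, 1, 23 and 30 counts in control DA replicates 1 to 7, and 1, 2, 6, 1 and 1 counts in the 5 Prdm6-deficient DA. The groups overlapped only through control DA replicate 5, which had a single count. The means were 1.44 ± 1.13 CPM (SD, n = 7) and 0.112 ± 0.0948 CPM (SD, n = 5), a log2 fold change of -3.60 (SE 0.88, adjusted p = 0.00599). Of all 16463 genes tested, 5.43% were called in this comparison, and 2.82% of all genes were called as lower. Because 4 of the 5 Prdm6-deficient DA were at 3 counts or fewer, Agt entered the test through its control libraries, so the p-value is not taken as support for a difference. The call did not hold in 9 of 13 alternative fits or without any of 5 single libraries, with adjusted p-values from 0.0107 to 0.382 in those 9 fits. Limma-voom with the embryo as a block gave -3.06 (adjusted p = 0.0576), and without control DA replicate 1 the log2 fold change was -3.15 (adjusted p = 0.0173). Without Prdm6-deficient DA replicate 1, 2, 6 or 7 the adjusted p was 0.0198, 0.0169, 0.0211 and 0.0193. In the aorta Agt was at 3, 23, 20, 17, 17 and 8 counts in controls and 8, 8, 7, 12 and 2 counts in Prdm6-deficient libraries, which overlapped, with a log2 fold change of -1.02 (SE 0.79, adjusted p = 0.702). The difference of the genotype effect between the vessels was -2.58 (SE 1.11, adjusted p = 0.232).

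Adipocyte markers also differed between the genotypes in the DA. Fat is a known source of Agt outside the liver. Adipoq, which encodes the fat hormone adiponectin, had 4, 575, 1, 31, 0, 79 and 556 counts in control DA replicates 1 to 7 and 0 in all 5 Prdm6-deficient DA. Plin1, a coat protein of lipid droplets, had 1, 353, 0, 47, 0, 46 and 314 counts in control DA and 0 or 1 in Prdm6-deficient DA. Pparg, the adipocyte transcription factor, averaged 6.48 ± 6.83 against 0.623 ± 0.594 CPM. Of 6 brown adipocyte markers 5 could be tested and these 3 were called lower. Adipoq and Plin1 entered the test through control libraries, so their calls are not taken as support. Of the others, Cidea averaged 3.59 against 5.09 CPM and Fabp4, which endothelium also expresses, 104 against 138 CPM, neither of them called, and Ucp1 was at 0 in 6 of 7 control and 4 of 5 Prdm6-deficient DA. The summed level of the whole list, which Fabp4 dominates, was 32.3 to 242.5 CPM in control DA and 72.25 to 205.7 CPM in Prdm6-deficient DA. Control DA replicate 1, the library with the most Agt, had 4 counts of Adipoq and the highest cardiomyocyte markers, and replicate 5, with 1 count of Agt, had no Adipoq or Plin1. The part of fat or heart tissue around the vessel in the Agt result was not tested, and in bulk samples fewer cells of a type and less RNA per cell cannot be told apart.

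Ace (chr11:105967945-105989964) was lower in Prdm6-deficient DA, and the genotypes separated fully. Control DA had 506, 581 and 798 CPM in the lowest, median and highest library. Prdm6-deficient DA had 378, 361, 419, 433.5 and 323.5 CPM. Every Prdm6-deficient DA thus lay below every control DA, as 2.93% of all tested genes did in this direction. The log2 fold change was -0.67 (SE 0.12, adjusted p = 2.2e-04), and Ace was called without each single library in turn and in 12 of 13 other fits. Within the second run of embryos it was -0.75 (adjusted p = 0.0023) and within the first, with few libraries, -0.75 (adjusted p = 0.0383). Control aorta held 404, 442 and 520 CPM in the lowest, median and highest library and Prdm6-deficient aorta 472, 421, 293, 369 and 440 CPM, which overlapped. The genotype difference in the aorta was -0.17 (SE 0.12, adjusted p = 0.650), but the test of the difference between the vessels, -0.50 (SE 0.17, adjusted p = 0.0904), did not pass.

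Between control vessels Ace was higher in the DA by 0.44 (SE 0.11, adjusted p = 0.00784) on the log2 scale, which passed the p limit and not the size limit of 0.5. Endothelial markers, 7 genes, gave a summed 735 to 932 CPM in control DA and 756 to 1083 CPM in Prdm6-deficient DA, and none of the 7 was called. In the same genotype comparison of the DA 5 of 6 smooth muscle markers were called lower, and the median of the 6 was -0.89 on the log2 scale. Between control vessels all 6 were called higher in the DA, with a median of 1.155, as was 1 of the 7 endothelial markers. The part of either cell type in the Ace result was not tested.

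Agtr1b (chr3:20314473-20367177) carried the difference that chose this group of genes. Control DA replicates 1 to 7 had 1, 1, 0, 28, 0, 50 and 0 counts, so that 5 of the 7 libraries were at or below 3 counts and replicates 4 and 6 held nearly all of the signal at 1.87 and 2.79 CPM. Prdm6-deficient DA had 112, 114, 180, 144 and 141 counts, or 6.98, 6.47, 8.25, 8.28 and 6.92 CPM. In the aorta controls had 18, 12, 19, 14, 8 and 3 counts and Prdm6-deficient libraries 79, 112, 172, 66 and 130 counts. All Prdm6-deficient libraries were above all controls of the same vessel, a pattern that 2.73% of tested genes showed in the DA and 3.92% in the aorta. The fitted difference was 3.46 (SE 0.87) on the log2 scale in the DA and 3.11 (SE 0.91) in the aorta. These values chose the gene and are given with no test. In the DA the size depended on how the near-empty controls were weighted, from 2.84 within the second run of embryos to 5.97 with limma-voom and 7.91 within the first run, where both controls had at most 1 count. In the aorta, 3 of 7 endothelial markers were called higher in Prdm6-deficient libraries, with sums of 873 to 1137 CPM against 539 to 896 CPM in controls. In the DA 4 of 6 melanocyte markers were called lower, with sums of 2.44 to 4.96 CPM against 32.25 to 228.6 CPM. Of these, Dct, Tyrp1 and Tyr were at 3 counts or fewer in all 5 Prdm6-deficient DA, and Pmel in 3 of 5. They entered the test through control libraries, so their calls are not taken as support. Of 6 sympathetic neuron markers 3 could be tested, and 1, Elavl4, was called higher in Prdm6-deficient DA (log2 fold change 2.43) and aorta (3.01). The 6 summed to 15.3 to 39.8 CPM against 6.73 to 24.0 CPM in the DA and to 39.03 to 79.0 CPM against 18.0 to 27.7 CPM in the aorta, while Th and Dbh, which define these neurons, averaged below 1 CPM in all groups and Dbh was at 0 in control aorta. Of 6 fibroblast markers 1, Lum, was called higher in Prdm6-deficient DA (log2 fold change 1.44) and aorta (1.61), and 0 were called lower. The median of these 6 was 0.30 in the DA and -0.26 in the aorta. The part of these cells in the Agtr1b values was not tested.

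The comparison of the 2 vessels had no part in choosing the genes, and it gave no call for Agtr1b. Control DA and control aorta differed by 0.12 (SE 0.84, adjusted p = 0.966), and the sign turned in 4 of 12 other fits, to between -0.95 and -2.20. Without control DA replicate 4, control DA replicate 6 or control aorta replicate 6 it was -0.37, -0.99 and -0.09. Prdm6-deficient DA at 7.38 ± 0.829 CPM (SD, n = 5) and Prdm6-deficient aorta at 5.34 ± 1.89 CPM (SD, n = 5) overlapped in their ranges.

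Agtr1a (chr13:30336441-30382867), the main type 1 receptor of adult rodent vessels, differed less clearly. Control DA held 0.426, 2.23 and 9.95 CPM in the lowest, median and highest library, the last being replicate 3, the PRDM6wt/wt embryo without Cre. The other 6 control DA were at or below 2.75 CPM. Prdm6-deficient DA held 3.93, 12.04, 5.50, 7.07 and 10.45 CPM, each above those 6 and on both sides of replicate 3. The log2 fold change was 1.40 (SE 0.45, adjusted p = 0.0386), which missed the call limit. Without control DA replicate 3 it was 2.11 with an adjusted p of 1.4e-04, and by limma-voom with the embryo as a block 1.84 with an adjusted p of 0.00486. Within the second run of embryos it was 2.79 (adjusted p = 7.9e-04), and within the first run, which holds replicate 3, it was -0.20 (adjusted p = 0.926). Control aorta held 4.93, 6.44 and 7.32 CPM in the lowest, median and highest library and Prdm6-deficient aorta 8.27, 8.34, 10.4, 7.31 and 10.2 CPM. These groups overlapped by 1 library, with a log2 fold change of 0.48 (SE 0.46, adjusted p = 0.800).

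The 2 type 1 receptor genes were then set side by side per kilobase of exon. The median share of Agtr1b in their sum was 2.39% in control DA (range 0 to 73.7%), 60.3% in Prdm6-deficient DA (41.1 to 69.8%), 11.6% in control aorta (2.56 to 20.4%) and 44.4% in Prdm6-deficient aorta (35.3 to 49.8%). Agtr1b exceeded Agtr1a in 3 of 5 Prdm6-deficient DA, in 2 of 7 control DA (replicates 4 and 6), and in 0 of 6 control and 0 of 5 Prdm6-deficient aortas. The summed level was 1.38 ± 1.10 CPM per kb (SD, n = 7) in control DA and 6.24 ± 1.05 (SD, n = 5) in Prdm6-deficient DA, and 2.58 ± 0.286 (SD, n = 6) and 5.68 ± 1.35 (SD, n = 5) in the aortas. The sum includes Agtr1b and so is described with no test.

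**Figure D2:**
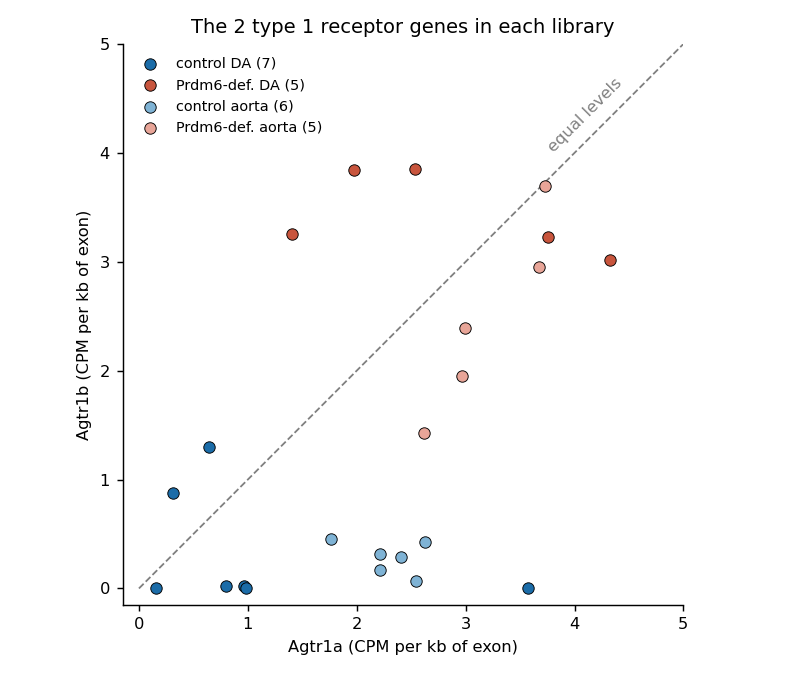
Agtr1b against Agtr1a in each library, both in CPM per kb of exon, with the dashed line marking equal levels. Control libraries stay below 0.5 CPM per kb of Agtr1b except control DA replicates 4 and 6, while Prdm6-deficient DA libraries lie on both sides of the line and Prdm6-deficient aorta libraries below it.

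Agtr2 (chrX:21484544-21489164) had the highest level per kb of the 4 receptor genes in every library. Control DA varied widely, with 42.8, 116 and 204 CPM in the lowest, median and highest library, while control aorta held 152, 197 and 215 CPM. Of the 7 control DA only replicate 1, at 204 CPM, lay within the control aorta range, and the other 6 were at or below 139 CPM. The log2 fold change of control DA against control aorta was -0.72 (SE 0.19, adjusted p = 0.0110), just short of the call limit. It passed in 5 of 12 other fits, among them DESeq2 (-0.72, adjusted p = 0.00553) and limma-voom with the embryo as a block (-0.83, adjusted p = 0.00229), and not in edgeR with the embryo as a block (-0.86, adjusted p = 0.0555). Without control DA replicate 1 it was -0.92 with an adjusted p of 3.4e-04. It also passed without control DA replicate 2, control DA replicate 6 or control aorta replicate 1. Prdm6-deficient DA held 201.5, 170, 166.5, 149.5 and 169 CPM, in the upper part of the control range. Against control DA this was a log2 fold change of 0.55 (SE 0.20, adjusted p = 0.0760), and without control DA replicate 1 it was 0.74 with an adjusted p of 0.00487.

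In the aorta the genotypes did not part for Agtr2, at 194 ± 21.96 CPM (SD, n = 6) in controls and 190 ± 14.5 CPM (SD, n = 5) in Prdm6-deficient libraries, a log2 fold change of -0.03 (SE 0.21, adjusted p = 0.994). The lowest Agtr2 among control DA was in replicate 6, which also had the lowest summed level of 6 fibroblast markers (6306 CPM), and the highest was in replicate 1, which had the highest (9927 CPM). In Prdm6-deficient DA these markers summed to 8759 to 10550 CPM. The part of fibroblasts in the Agtr2 levels was not tested.

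Mas1 (chr17:12841079-12868143) was near or below detection. It had 2, 0, 0, 0, 1, 0 and 0 counts in control DA, 0 in all 6 control aortas and 1 count in 1 Prdm6-deficient aorta. Prdm6-deficient DA had 5, 19, 0, 1 and 0 counts. The 2 libraries above 3 counts were the 2 pools of 2 embryos. Mas1 did not pass the low-count filter, and an exact two-sided permutation test of the mean CPM gave p = 0.162 for the genotypes in the DA and p = 0.909 in the aorta. Most of Mas1 is overlapped on the other strand by Airn, which had 4062 counts over all libraries against 29 for Mas1, and the counting is not stated to use strand, so reads of the 2 genes may not have been told apart.

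In the DA genotype comparison, with 5.43% of all genes called, Ace was called. Agt also passed the limits, but it entered the test through its control libraries and missed the limits in 9 of 13 other fits. Ace, Agtr1a and Agtr2 had an unadjusted p below 0.05 and Ren1 did not, beside 3906 of all 16463 genes that did. DESeq2 and limma-voom also called Ace, and limma-voom called Agtr1a (log2 fold change 1.84, adjusted p = 0.00469) and not Agt. In the aorta, where 2.45% of all genes were called, edgeR called 0 of the 5 genes with a test, and 0 of 5 had an unadjusted p below 0.05. Between control vessels, with 5.36% of all genes called, it called 0 of 6, of which 4 had an unadjusted p below 0.05, while DESeq2 and limma-voom each called 2 (Agtr2 and Ren1). Between Prdm6-deficient vessels, with 0.267% called, it called 0 of 6, and 1 had an unadjusted p below 0.05. For the difference of the genotype effects, with 2.58% called, it called 0 of 5, and 2 had an unadjusted p below 0.05. Over all 16463 genes, an unadjusted p below 0.05 was found for 2304 in the aorta and 3562 between control vessels. It was found for 1654 between Prdm6-deficient vessels and 2619 for the difference. DESeq2 and limma-voom called 0 of the tested members in the aorta, between Prdm6-deficient vessels and for the difference as well.

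**Figure D3:**
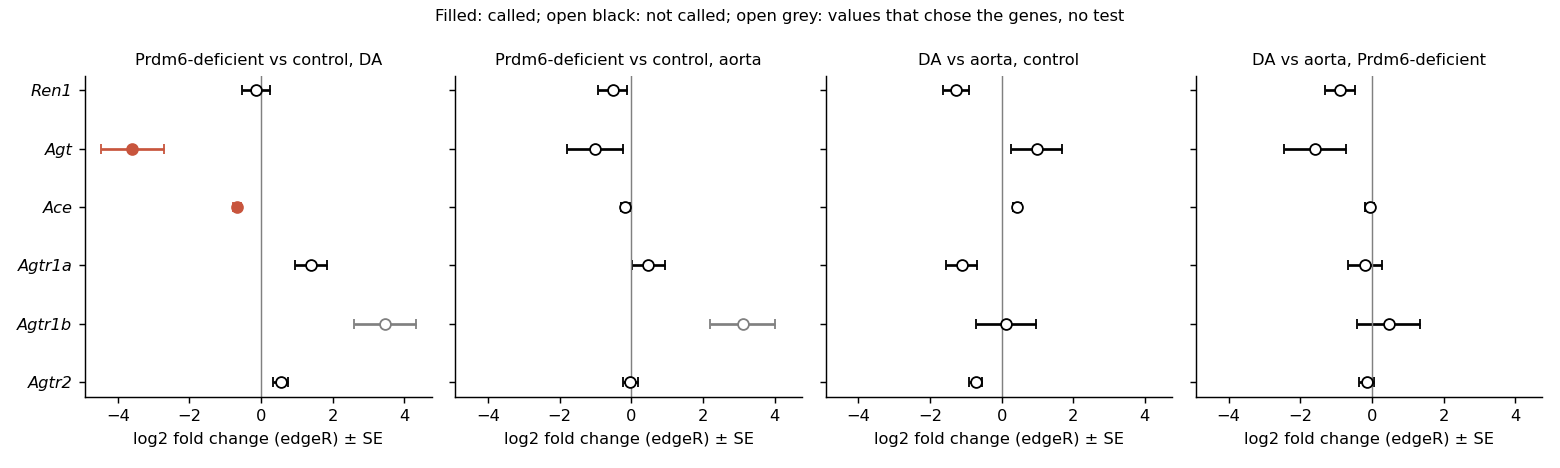
Log2 fold change (horizontal axes) with its standard error for the 6 genes fitted in 4 comparisons. Filled points, Ace at -0.67 and Agt at -3.60 in the DA genotype comparison, passed the limits, Agt with the low counts described in the text, while the grey points of Agtr1b near 3 are the values that chose the genes.

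Because 6 control embryos gave both vessels, the vessels could also be compared within an embryo. Agtr1a was lower in the DA than in the aorta of the same embryo in 6 of 6 control embryos, by a mean of -1.48 ± 0.663 (SD) on the log2(CPM + 1) scale. Ace was higher in the DA in 6 of 6, by 0.35 ± 0.144. Agtr2 was lower in the DA in 5 of 6, with a mean of -0.86 ± 0.880, and Ren1 in 5 of 6, with a mean of -1.19 ± 1.03. The exception for both was the embryo of control DA replicate 1. Across all control libraries the fitted log2 fold change of Agtr1a was -1.11 (SE 0.43, adjusted p = 0.104), which was not called. With the embryo as a block it was -1.66 (adjusted p = 0.00858) by limma-voom, which passed the call limit, and -2.01 (adjusted p = 0.0158) by edgeR, which did not. Without control DA replicate 3, whose embryo gave no aorta, the fit without the block gave -1.83 with an adjusted p of 4.6e-04. The 2 single Prdm6-deficient embryos with both vessels differed by -0.81 and 0.03 for Agtr1a and by 0.51 and -0.44 for Ace, in opposite directions.

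**Figure D4:**
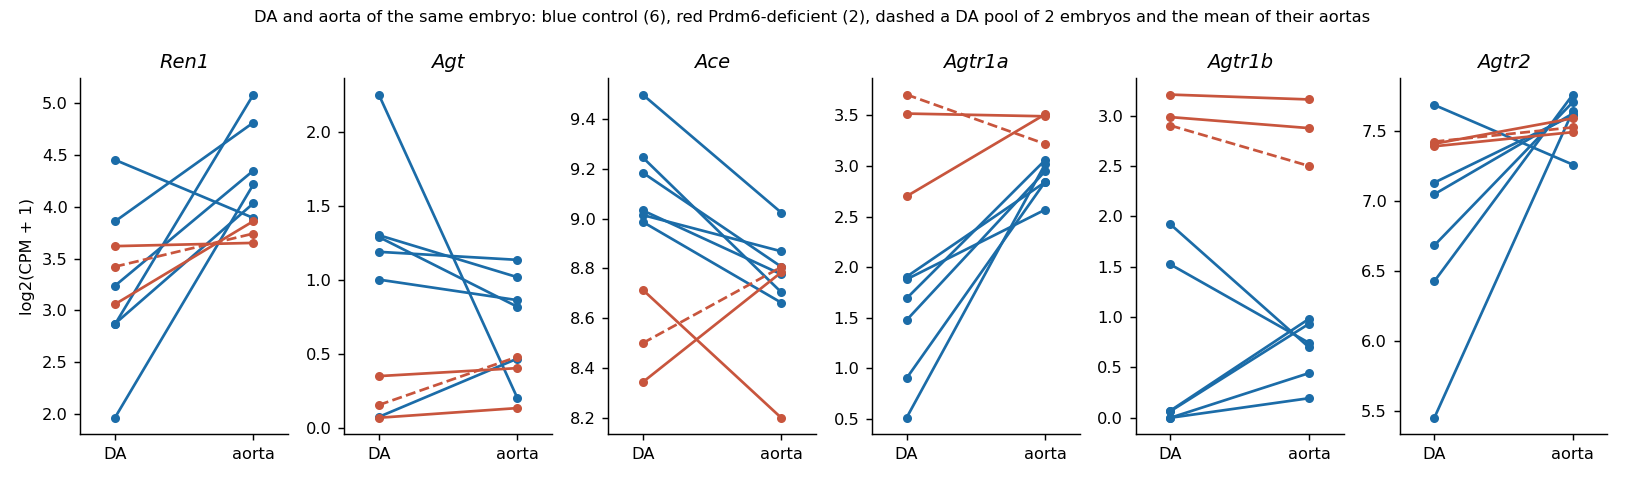
DA and aorta of the same embryo for 6 genes, on the log2(CPM + 1) scale, with 6 control embryos in blue, 2 Prdm6-deficient embryos in red and a DA pool of 2 embryos with the mean of their aortas as a dashed line. All 6 control lines rise from DA to aorta for Agtr1a and fall for Ace, while those for Agtr1b cross.

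The rest of the pathway was described through 53 further genes, of which 46 could be tested, in lists chosen with earlier results of these data known. In the DA 4 of the 46 were called higher and 5 lower in Prdm6-deficient embryos, where 2.61% and 2.82% of all genes were. In the aorta 6 were called higher and 0 lower, beside 1.63% and 0.826% of all genes. Between control vessels 7 were higher in the DA and 3 lower, beside 3.16% and 2.19%, and between Prdm6-deficient vessels 0 were called. The genotype effect was called as different between the vessels for 1 gene upwards (Mtus1) and 5 downwards (Mme, Rgs5, Rgs2, Ccn1 and Ccn2), beside 0.917% and 1.66% of all genes. Of the enzymes of angiotensin formation and breakdown, Mme, neprilysin, which cuts angiotensin I and other peptides, averaged 11.8 ± 4.75 CPM in the DA of controls and 11.1 ± 2.92 CPM in that of Prdm6-deficient embryos, but 3.53 ± 2.24 in control aorta and 34.9 ± 4.78 in Prdm6-deficient aorta. Its log2 fold change in the aorta was 3.30 (SE 0.36, adjusted p = 6e-07), and the effect differed between the vessels by -3.38 (SE 0.49, adjusted p = 6.3e-05).

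Of 11 proteins that bind or dampen angiotensin receptors, 1 was called higher and 1 lower in the DA, beside 2.61% and 2.82% of all genes. In the aorta 3 were called higher, beside 1.63% of all genes. Rgs2, which shortens Gq signals, fell from 27.8 ± 6.37 to 12.4 ± 2.88 CPM in the DA (log2 fold change -1.16, SE 0.17, adjusted p = 2.3e-05) and was at 10.65 ± 1.59 and 14.2 ± 2.22 CPM in control and Prdm6-deficient aorta, where it was not called. Rgs5, a relative of Rgs2 known from pericytes and arterial smooth muscle, averaged 7853 ± 2023 CPM in the DA and 1623 ± 522 CPM in the aorta of controls, and the Prdm6-deficient DA and aorta lay close together at 5307 ± 1647 and 5290 ± 373 CPM. It rose in the aorta by 1.71 (SE 0.20, adjusted p = 1.4e-06) on the log2 scale. The 5 other pericyte markers summed to 544 to 643 CPM in control and 589 to 667.5 CPM in Prdm6-deficient aorta, and 1 of them, Abcc9, was called lower there (log2 fold change -0.68, adjusted p = 0.00586). Grk3, a receptor kinase, rose in both vessels, by 0.81 (SE 0.16, adjusted p = 6e-04) and 0.96 (SE 0.16, adjusted p = 2.4e-04), and Rgs4 rose in the aorta by 0.82 (SE 0.12, adjusted p = 6.7e-05), an effect not called as different from that in the DA (adjusted p = 0.107). Mtus1, which encodes a type 2 receptor interacting protein, was lower in control DA than in control aorta (117 ± 31.0 against 203 ± 14.2 CPM, log2 fold change -0.79, adjusted p = 3.5e-05). Its genotype effect differed between the vessels by 0.82 (SE 0.18, adjusted p = 0.00668).

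Of 11 genes of Gq coupling, Plcb1, a phospholipase that Gq activates, rose in Prdm6-deficient DA (log2 fold change 0.83, SE 0.19, adjusted p = 0.00439) and Gnaq, the Gq alpha subunit itself, fell (-0.53, SE 0.12, adjusted p = 0.00247). Itpr1, the receptor that releases calcium in response, rose in the aorta (0.51, SE 0.11, adjusted p = 0.00559). Both DA changes went from the control DA level towards that of control aorta, where Plcb1 averaged 24.15 ± 4.75 and Gnaq 74.9 ± 11.4 CPM. The genotype effects of Plcb1, Gnaq and Itpr1 were not called as different between the vessels (adjusted p = 0.0451, 0.0143 and 0.0911).

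Of 10 genes that type 1 receptor signalling is known to induce in cultured cells, 7 could be tested. In the DA 3 were called lower and 1 higher, beside 2.82% and 2.61% of all genes, in a list chosen with earlier results known. Ccn2, a secreted matrix protein, fell from 1208 ± 237 to 508 ± 107.5 CPM (log2 fold change -1.25, SE 0.16, adjusted p = 1.8e-06). Ccn1, its relative, fell by 0.79 (SE 0.19, adjusted p = 0.00451), and Egr1, an early response transcription factor, fell by 1.19 (SE 0.23, adjusted p = 5.5e-04) on the log2 scale. Hbegf, singled out after its values were seen, rose by 1.01 (SE 0.24, adjusted p = 0.0056). None of these was called in the aorta. The genotype effects of Ccn2 and Ccn1 differed between the vessels, by -1.34 (SE 0.22, adjusted p = 2.1e-04) and -1.45 (SE 0.27, adjusted p = 8.4e-04), and those of Egr1 and Hbegf were not shown to (adjusted p = 0.653 and 0.127). Of the mineralocorticoid arm 3 of 5 genes could be tested and 0 were called in either genotype comparison.

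**Figure D5:**
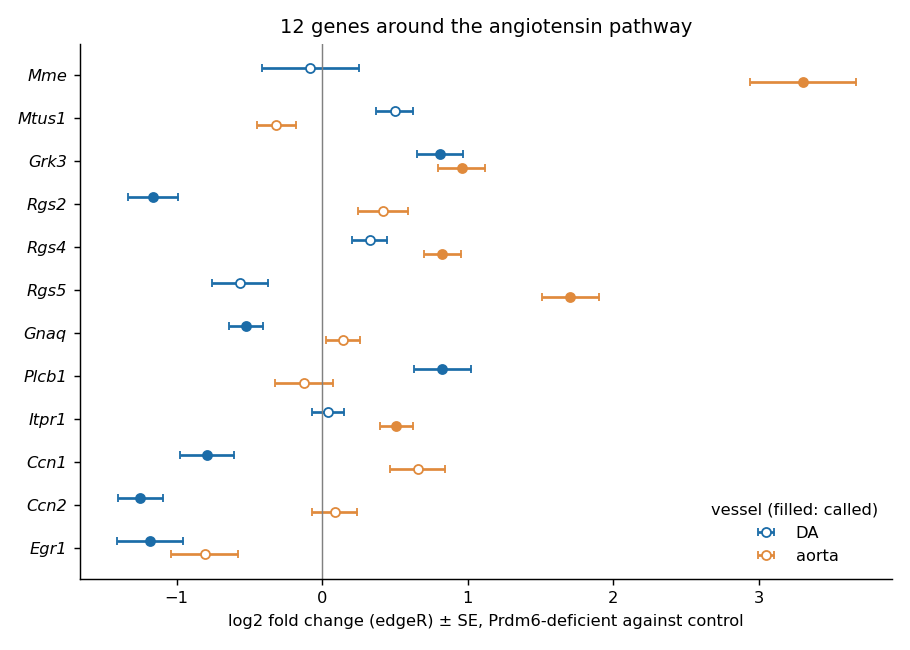
Log2 fold change with its standard error, Prdm6-deficient against control, of the 12 named pathway genes in the DA (blue) and aorta (orange), filled where called. Filled points are Mme, Rgs5, Rgs4, Itpr1 and Grk3 for the aorta and Rgs2, Gnaq, Plcb1, Ccn1, Ccn2, Egr1 and Grk3 for the DA, and the genotype effect was called as different between the vessels for Mme, Rgs5, Rgs2, Ccn1, Ccn2 and Mtus1.

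Finally the tested genes whose log2 CPM ran most like each member over the 23 libraries were listed, as a description that mixes differences between groups with those within them. For Agtr1b they were Mgp (Pearson r = 0.94), a matrix inhibitor of calcification, Fgl2 (0.90), Chrna2 (0.90), Tm4sf1 (0.89) and B230118H07Rik (0.88). All had higher means in both Prdm6-deficient vessels, which a ranking over both genotypes favours, since Agtr1b was chosen by that difference. Of the 5, 1, Tm4sf1, was also among the top 5 by Spearman's rho. For Agtr1a they were Nudt4, Clip2 and Gdpd5 (r = 0.84 to 0.82), and for Agtr2 Maged2, Vegfc and Csgalnact1 (0.87 to 0.86). Among those for Ace were Mmp2 and Twsg1 (both 0.91), and for Ren1 they were Pcsk6, Lrrc17 and Sned1 (0.86 to 0.83). For Agt they were Reep6, Sh3kbp1 and Atp5b (0.81 to 0.71), and by Spearman's rho Adipoq came first (0.82). The top 3 by Spearman's rho shared 1 gene with the top 3 by Pearson r for Agtr1a, 1 for Agt and 2 for Ren1. For Agtr2 and Ace they shared 0. Among the members themselves Agtr2 and Ren1 were the most alike, with r = 0.70 over all libraries and 0.61 after group means were removed.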

How the data were processed

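RNA-Seq libraries of DA and ascending aorta were aligned with STAR to mm10 and counted with RSEM by the authors, who deposited expected counts per gene, of which 7.71% were not whole. These were rounded and used without other change for 23 libraries. Of 54752 identifiers, 54723 were matched to gene names. Counts were fitted in edgeR (version 4.0.16, R 4.3.3) by the quasi-likelihood test with TMM scaling, filterByExpr and 1 mean per vessel and genotype over all libraries, with Benjamini-Hochberg adjustment over 16463 genes. The call limits were 0.01 for the adjusted p and 0.5 for the size of the log2 fold change. Levels are TMM-scaled CPM, and SE is the log2 fold change over the square root of F. Each library is an embryo or a pool of 2, and no pair of libraries of 1 group was a duplicate (56 pairs). The scripts were tested on simulated data. With 200 genes changed in Prdm6-deficient DA, edgeR called 58% of 2-fold and 75% of 4-fold changes. Changes of these sizes can thus go uncalled, and there was 1 false call. DESeq2 (1.42.0), limma-voom (3.58.1), other filters, run as a covariate, replicate and embryo blocks, and each library left out were tried.

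The members and lists were chosen with earlier results of these data known. Pathway genes were named if they were among the 12 with the smallest adjusted p of those called in any comparison. Some DA and aorta libraries came from the same embryo per the labels. The deviations of such libraries from their group means correlated by -0.0049 to 0.084 over 10 pairs, and the embryo was a block in alternatives only. A few genes that these rules would name are not reported here.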

Additional observations from a re-analysis of the deposited data

Results flagged for a closer look

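Of 27 sets of libraries examined for a value far from the rest by Dixon's test, 6 held one. Some of these sets rest on few counts, so no rate by chance is set beside this number. Agtr1a stood at 9.95 CPM in control DA replicate 3, with the next control DA at 2.75 CPM. Agt stood at 3.76 CPM in control DA replicate 1, with the next at 1.47 CPM, in the library that also had the most cardiomyocyte marker RNA. Agt stood at 0.275 CPM in Prdm6-deficient DA replicate 5, which is 6 counts, with the next at 0.114 CPM. Agtr2 stood at 152.0 CPM in control aorta replicate 1, with the next at 194 CPM. Mas1 stood at 1.08 CPM in Prdm6-deficient DA replicate 2, a pool of 2 embryos, with the next at 0.312 CPM, and at 0.0458 CPM, a single count, in Prdm6-deficient aorta replicate 2, with 0 in the others.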

How the results depend on the processing

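Prdm6-deficient against control DA called 894 genes. Agtr1b, whose genotype values chose the genes, is left out of the genotype counts of members here. Ace lay past the limits, and so did Agt, with the low counts given above. Within the first and second run of embryos this comparison called 147 and 419 genes. Of the tested members only Ace lay past the limits with only the 2 groups fitted, without the pools or without the Cre control. Within the first run none did. In the aorta 404 genes were called, against 702 with only the 2 groups and 226 within the second run. No tested member lay past the limits there in any fit. Between control vessels 0 members were called against 2 by DESeq2 or limma-voom, 1 without a filter, with the replicate block by number or within the second run, and 3 with the embryo block by limma-voom. The embryo block by edgeR called 0 there. Between Prdm6-deficient vessels 44 genes were called against 137 by DESeq2, 83 with only the 2 groups, 16 with the replicate block, 70 with the embryo block, 15 without pools, and 2 and 6 within the first and second run. The genotype effects differed between vessels for 425 genes, and for 166 within the second run. Leaving out 1 library gave 784 to 948, 325 to 441, 775 to 963, 22 to 58 and 359 to 490 genes in the 5 comparisons. The order is DA, aorta, control vessels, Prdm6-deficient vessels and difference. Ace lay past the limits in the DA each time, and 0 to 2 members did between control vessels. In the other comparisons 0 did. The causes were not tested.

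Directions turned only for values that were not called. Agtr1a in the DA was -0.20 within the first run. Ren1 in the DA was 0.16 by limma-voom, 0.16 with the embryo block, 0.011 without the Cre control and 0.22 within the second run, and between -0.30 and 0.26 with 1 library left out. Agtr1b between control vessels was -2.20 by limma-voom, -0.95 with the replicate block, -2.19 and -1.81 with the embryo block by limma-voom and edgeR, and -0.99 to 0.35 with 1 library left out. Agtr1a was 0.33 within the second run and Ace 0.31 within the first between Prdm6-deficient vessels, and with 1 library left out Ace there was -0.15 to 0.0068 and Agtr2 in the aorta -0.089 to 0.0022. Of 1049 values over 30 results for the members, 989 kept direction and side of the threshold, 15 lost and 21 gained a call, 18 turned and 6 moved. Beside Agt, Agtr1a, Agtr2 and Ren1, no tested member changed its call with the replicate or embryo block. Depth limits Mas1, Agt and the Agtr1b of controls, which rest on few counts.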
